A study of Mus musculus with 2 samples.

Results

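The genes described here are 9 surface-protein genes by which blood stem cells and multipotent progenitors of the mouse are sorted: Slamf1, Cd48, Cd84 and Ly9 of the SLAM family, together with Kit, Ly6a, Cd34, Flt3 and Procr. They were chosen by name, and all 9 were found by their Entrez identifiers among the 17216 genes listed in either library. The study sequenced RNA of long-term haematopoietic stem cells (LT-HSCs), as sorted from C57BL/6 mice. It has 1 library of Ccp3-/- mice, which lack CCP3, an enzyme that trims glutamate residues from proteins, and 1 library of wild type littermates. The gate, the same for both genotypes, took lineage-negative cells with Sca-1 and c-Kit that carried CD150 and had no CD48. The labels give neither the age or sex of the mice, nor how many were pooled, nor how the allele was made. With 1 library per genotype there was no replicate check and no test between genotypes was possible, so every difference is one between 2 libraries.

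LT-HSCs sit at the top of the blood lineages and are separated from their immediate progeny by combinations of surface proteins. Sca-1 (Ly6a) and c-Kit (Kit) mark the whole stem and multipotent compartment, CD150 (Slamf1) and the endothelial protein C receptor (Procr) enrich its long-term stem cells, and CD48, CD34 and FLT3 are gained as cells become multipotent progenitors. SLAM proteins are immunoglobulin-like receptors, several of which bind their own kind on a neighbouring cell, and most of their genes lie side by side on mouse chromosome 1.

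The values are FPKM, in which fragments are scaled by transcript length and library depth, so levels can be compared between genes per length. From the steps between low values the depth was about 14.2 M reads in the Ccp3-/- library and 15.3 M in the wild type library. Each ratio below is Ccp3-/- FPKM over wild type FPKM with an approximate 95% counting interval from the reads so estimated, and that interval covers counting error only. Agbl3, which encodes CCP3, was listed at 0.66 FPKM in the Ccp3-/- library and 1.11 FPKM in the wild type library, a ratio of 0.595 (0.289 to 1.19). Transcripts outside a deleted part would still be counted, so this value did not check the genotype label. The libraries also differed in Xist, a noncoding RNA that coats the silenced X, with 44.2 FPKM in the Ccp3-/- and 5.38 FPKM in the wild type library. The Y-linked gene Eif2s3y stood at 11.5 FPKM in the Ccp3-/- library and at 44.6 FPKM in the wild type library. Its ratio (0.259) was the lowest of the Y-linked genes looked up, beside Kdm5d (0.315), Ddx3y (0.430) and Uty (0.507). Xist and each of these Y-linked genes were listed in both libraries. The part of the sex of the mice in the differences below was not tested.

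The RNA levels of Cd48 and Slamf1 did not follow the gate, whereas those of its other positive genes were high. Kit lay above 91.3% of listed genes in the Ccp3-/- library and above 91.9% in the wild type library. Ly6a lay above 81.8% in the Ccp3-/- library and above 90.1% in the wild type library. Cd48, whose protein the gate excluded, lay above 96.2% in the Ccp3-/- library and above 96.9% in the wild type library. Slamf1, whose protein the gate required, lay above 40.3% in the Ccp3-/- library and above 35.0% in the wild type library. RNA does not measure surface protein, but the label LT-HSC is not borne out by Cd48 and Slamf1, and the cells are called here by their sort. The other genes of multipotent progenitors, Cd34 and Flt3, were also abundant. Across the 9 genes, levels spanned 52.0-fold in the Ccp3-/- library and 116-fold in the wild type library. Cd34 was at the top and Slamf1 at the bottom in both.

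**Figure D1:**
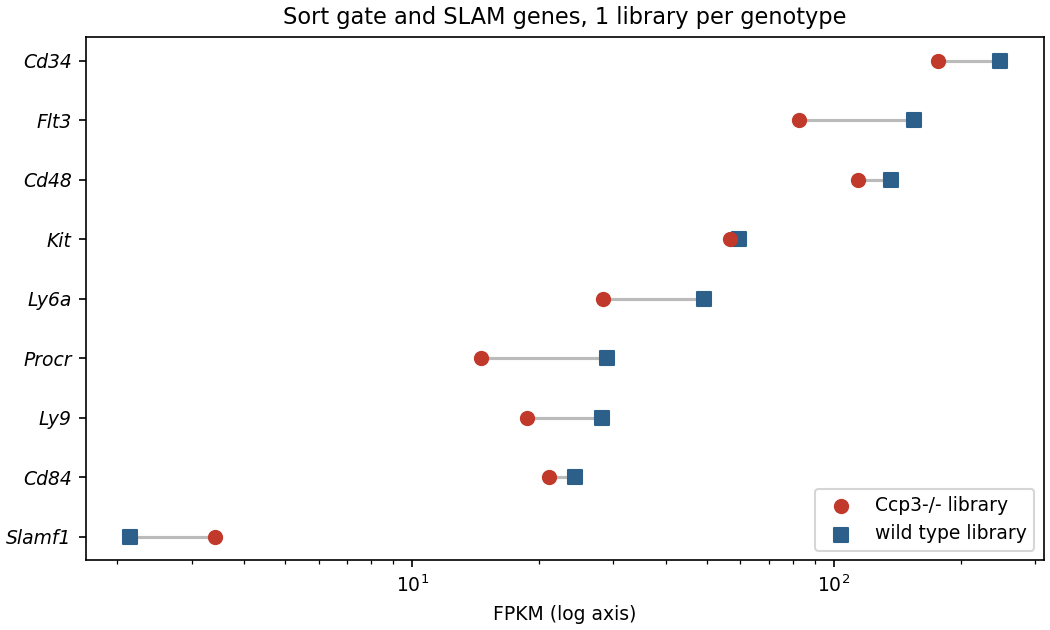
FPKM of each of the 9 genes (log axis) in the Ccp3-/- library (circles) and the wild type library (squares), ordered by the wild type value. Slamf1 stands alone at the low end, with 3.40 FPKM in the Ccp3-/- and 2.14 FPKM in the wild type library, and it is the one gene whose circle lies to the right of its square.

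Compared with the wild type library, 8 of the 9 genes were listed lower in the Ccp3-/- library and 1, Slamf1, higher. Among all genes that averaged 1 FPKM or more, 49.0% were lower in value. Differences were taken between log2(FPKM + 1) values, Ccp3-/- minus wild type, a scale on which low genes appear to change less than they do. Genes that averaged 1 FPKM or more were counted when they differed 1.5-fold or more on it. By this rule 3 of the 9 were lower (Procr, Flt3 and Ly6a, 33.3%) and 0 higher. Over the 11985 genes that passed the same minimum, 6.13% were lower and 6.11% higher. With both libraries scaled to the same FPKM sum, 3.25% were lower and 12.1% higher, the median of all genes moved to 0.18, and Slamf1 passed the rule as higher. The median difference was −0.49 over the 9 genes and 0.01 over all genes. The counting interval lay below 1 for 8 of the 9 genes and above 1 for Slamf1, beside 27.0% of all genes with an interval below 1 and 31.2% with one above it. An interval that misses 1 was thus common in these libraries, and the variation between animals or sorts was not measured.

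**Figure D2:**
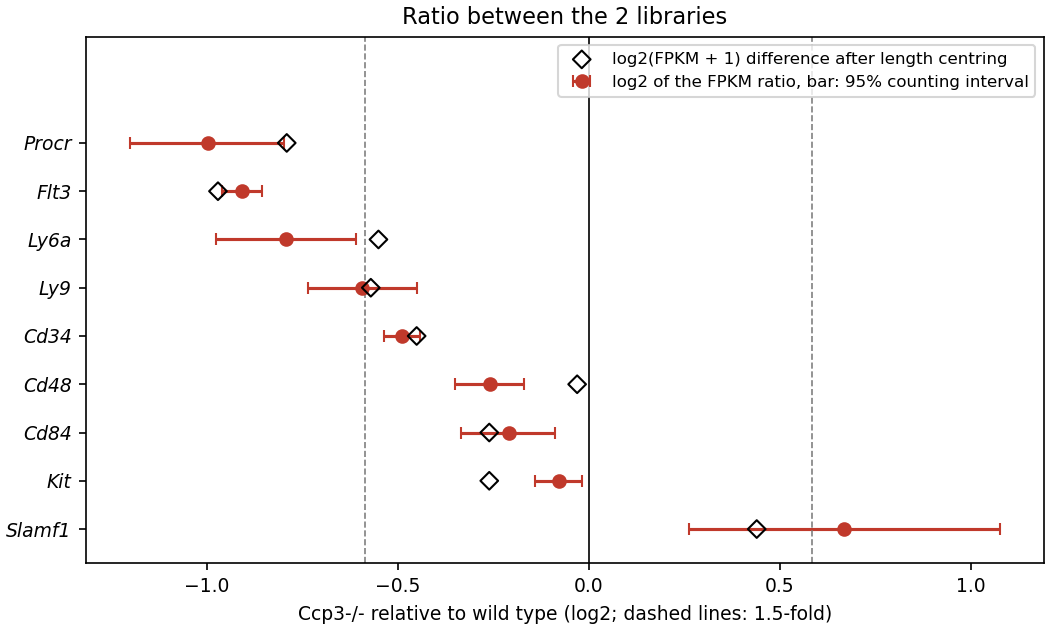
Filled circles give the log2 ratio of Ccp3-/- to wild type FPKM with its 95% counting interval, and open diamonds the log2(FPKM + 1) difference after subtracting the median of genes of similar transcript length. Procr, Flt3, Ly6a and, just past it, Ly9 lie beyond the dashed line of 1.5-fold on the left by their circles, and Slamf1 lies alone on the right.

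Among the SLAM genes, levels differed widely between neighbours on the same stretch of chromosome 1. Slamf1 encodes CD150, a receptor that binds CD150 on other cells. It was listed at 3.40 FPKM (about 128 reads) in the Ccp3-/- library, against 2.14 FPKM (about 87 reads) in the wild type library, a ratio of 1.59 (1.20 to 2.11). Its difference was 0.49 on the log2(FPKM + 1) scale, above that of 91.0% of all genes tested but short of 1.5-fold because the pseudocount weighs on so low a gene. Cd48 encodes a receptor held in the membrane by a lipid anchor, and its protein binds CD244 and CD2. It was listed at 114 FPKM in the Ccp3-/- library and 136 FPKM in the wild type library, a ratio of 0.836 (0.785 to 0.889). Both libraries thus held far more Cd48 than Slamf1 RNA per length. Cd48 stood 33.5-fold above Slamf1 in the Ccp3-/- library and 63.7-fold above it in the wild type library. The quotient of these ratios, Ccp3-/- over wild type, was 0.526 (0.398 to 0.695).

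Cd84 and Ly9 encode SLAM receptors that bind their own kind, and both are found on many blood cells. Cd84 was listed at 21.1 FPKM in the Ccp3-/- library and 24.4 FPKM in the wild type library, a ratio of 0.865 (0.794 to 0.941). Ly9 stood at 18.7 FPKM in the Ccp3-/- library and 28.2 FPKM in the wild type library, a ratio of 0.663 (0.601 to 0.732). Its plain ratio is just past 1.5-fold, whereas its difference of −0.57 with the pseudocount is just short of it. The level of Cd84 was 6.20 times that of Slamf1 in the Ccp3-/- library and 11.4 times in the wild type library. The level of Ly9 was 5.50 times that of Slamf1 in the Ccp3-/- library and 13.2 times in the wild type library.

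The stretch before the transcription start is shown for the 3 SLAM genes that follow one another on the chromosome, Cd48, Slamf1 and Cd84, because their RNA levels differ so widely. Each line holds the 250 bases upstream of the start on the plus strand, from RefSeq on GRCm38.p6, another build than the mm9 named by the submitters. The windows are chr1:171681742-171681991 for Cd48, chr1:171766882-171767131 for Slamf1 and chr1:171839447-171839696 for Cd84. Capitals mark matches, on either strand, to 3 short motifs of blood transcription factors: TGTGGT (the RUNX core), GATAA (GATA) and AGGAAG (ETS).
Cd48: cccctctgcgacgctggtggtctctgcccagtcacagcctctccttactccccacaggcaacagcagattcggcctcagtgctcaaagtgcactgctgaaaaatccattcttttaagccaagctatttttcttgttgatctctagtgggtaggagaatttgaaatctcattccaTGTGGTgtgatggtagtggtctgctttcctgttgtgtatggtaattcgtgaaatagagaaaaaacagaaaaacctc
Slamf1: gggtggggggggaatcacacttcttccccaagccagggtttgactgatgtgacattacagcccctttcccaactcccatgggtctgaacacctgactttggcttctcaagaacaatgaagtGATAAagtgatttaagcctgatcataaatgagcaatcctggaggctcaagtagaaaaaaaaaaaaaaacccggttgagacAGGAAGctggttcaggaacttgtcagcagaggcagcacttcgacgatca
Cd84: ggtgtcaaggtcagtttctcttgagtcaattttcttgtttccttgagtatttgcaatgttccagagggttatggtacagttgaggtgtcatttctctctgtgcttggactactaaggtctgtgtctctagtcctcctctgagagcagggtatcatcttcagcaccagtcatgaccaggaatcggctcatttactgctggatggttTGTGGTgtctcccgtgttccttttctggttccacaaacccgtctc
The windows of Cd48 and Cd84 each held 1 RUNX core, which is present in 14.0% of the 32851 windows of the table. Those of Cd34, Flt3, Kit and Procr, all more abundant than Slamf1, held none. Kit has 2 windows, of which only the first was read. The E-box, CANNTG, which is not capitalised, was in all 3 SLAM windows and in 66.2% of windows, and in Cd48 it overlaps the RUNX core. The Slamf1 window held no RUNX core, but 1 GATAA, found in 22.6% of windows, and 1 AGGAAG, found in 29.5%. The windows of Cd34 and Kit also held 1 match each to AGGAAG. No marked matches overlapped. A match describes the letters of the window only and is no evidence of binding. The number of CG dinucleotides was 3 in the Slamf1 window, 4 in that of Cd48 and 3 in that of Cd84, beside a median of 6 over all windows. The windows of Kit (17) and Flt3 (13) were richer in CG, and that of Cd34 held 6. The Procr window (13) was not matched to an annotated transcript start, and Ly9 and Ly6a had no window in the table used. The 3 SLAM windows were thus poor in CG, though the RNA levels of their genes were far apart.

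The SLAM cluster on chromosome 1 holds 7 genes of the family in the order Cd244a, Ly9, Slamf7, Cd48, Slamf1, Cd84 and Slamf6. Their FPKM summed to 169 in the Ccp3-/- library and 204 in the wild type library. Cd48 made up 67.5% of the sum in the Ccp3-/- library and 66.7% in the wild type library. Slamf1 made up 2.02% in the Ccp3-/- library and 1.05% in the wild type library. Cd244a, whose product is the receptor for CD48, was listed at 8.40 FPKM in the Ccp3-/- library and 9.27 FPKM in the wild type library, with an interval of the ratio (0.797 to 1.03) that includes 1. Slamf6, best known from lymphocytes, stood at 1.20 FPKM in the Ccp3-/- library and 2.63 FPKM in the wild type library, a ratio of 0.456 (0.308 to 0.663). Slamf7 was listed at 1.96 FPKM in the Ccp3-/- and 1.56 FPKM in the wild type library, and its interval (0.949 to 1.68) includes 1. So within the cluster 5 genes were lower in value and 2 higher, beside 49.0% of all tested genes lower in value. The 2 higher were not next to each other.

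**Figure D3:**
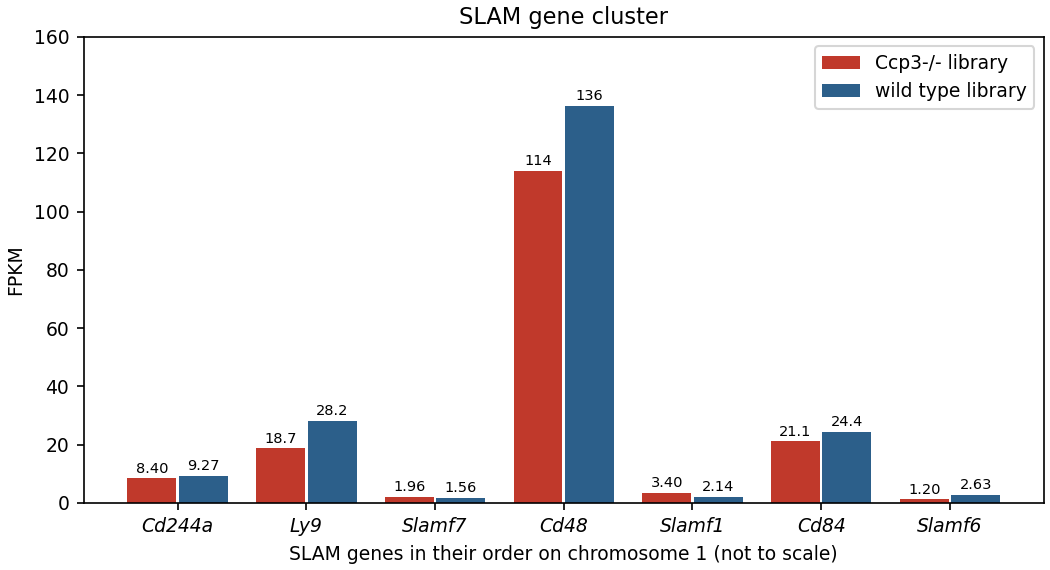
FPKM of the 7 SLAM genes of the chromosome 1 cluster in gene order, with the Ccp3-/- library left of the wild type library. Cd48 reaches 114 FPKM in the Ccp3-/- and 136 FPKM in the wild type library, while its SLAM neighbours on both sides, Slamf7 and Slamf1, reach at most 3.40 FPKM.

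Outside the cluster, Slamf8 was listed at 0.64 FPKM in the Ccp3-/- library and 0.73 FPKM in the wild type library, and Slamf9 at 1.51 FPKM in the Ccp3-/- and 1.52 FPKM in the wild type library. The SAP adaptor gene Sh2d1a, whose product binds the tails of SLAM receptors, was listed at 0.48 FPKM in the Ccp3-/- library and 0.90 FPKM in the wild type library, with an interval of the ratio (0.124 to 1.88) that includes 1. The related Sh2d1b1 stood at 0.91 FPKM in the Ccp3-/- and 1.08 FPKM in the wild type library. Sh2d1b2 was listed in neither library. The kinase gene Fyn, which acts with SAP, stood at 15.7 FPKM in both. Of the 13 genes of the family with its adaptors, 9 passed the minimum. Slamf6 alone was lower by the 1.5-fold rule and 0 were higher, beside 6.13% of all tested genes lower and 6.11% higher. The median difference of −0.13 became positive, at 0.04, with equal sums. Sh2d1a and Sh2d1b1 were thus listed far below Cd48 in both libraries.

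Kit and Ly6a are the positive gate genes of the stem and multipotent compartment. Kit, the receptor for stem cell factor, was listed at 56.5 FPKM (about 4138 reads) in the Ccp3-/- library and 59.7 FPKM (about 4712 reads) in the wild type library, a ratio of 0.947 (0.908 to 0.988). Its difference of −0.08 became 0.11 with equal sums, less than the 0.18 of the median gene. Kit thus differed least of the 9 genes as reported, but with equal sums Cd84 (−0.02) and Cd48 (−0.07) differed less, and after centring by length, described below, Cd48 did. Ly6a, which encodes the lipid-anchored protein Sca-1, stood at 28.4 FPKM (about 375 reads) in the Ccp3-/- library, against 49.1 FPKM (about 698 reads) in the wild type library. Its ratio was 0.578 (0.509 to 0.656). As a ratio to Kit, the Ly6a level was 0.502 in the Ccp3-/- library and 0.823 in the wild type library. Of the distinct 50-base stretches of Ly6a transcripts, 19.0% also occur in transcripts of other genes, most often of Ly6c1, so the share of reads given to Ly6a is uncertain. Ly6c1 was listed at 11.8 FPKM in the Ccp3-/- and 8.91 FPKM in the wild type library. For the other 8 genes that share was at most 2.38%, seen for Slamf1.

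Procr and Flt3 had the 2 largest differences of the 9 genes, although one marks stem cells and the other multipotent progenitors. Procr encodes the endothelial protein C receptor, which is shared by stem cells and endothelium. It was listed at 14.5 FPKM (about 303 reads) in the Ccp3-/- library, against 29.0 FPKM (about 652 reads) in the wild type library, a ratio of 0.501 (0.435 to 0.575). Only 1.81% of tested genes had a lower difference. Flt3 encodes the receptor for FLT3 ligand, which drives multipotent progenitors towards lymphoid and dendritic fates. Its level was 82.5 FPKM (about 4250 reads) in the Ccp3-/- library, against 155 FPKM (about 8590 reads) in the wild type library, a ratio of 0.533 (0.514 to 0.553). The Flt3 to Procr ratio was 5.68 in the Ccp3-/- library and 5.33 in the wild type library, and the quotient of 1.07 (0.925 to 1.23) left no difference detectable at this depth. Both the stem cell gene and the progenitor gene were thus lower, while Slamf1, another stem cell gene, was not. In bulk RNA, fewer cells of a type and less RNA per cell cannot be told apart.

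Cd34 encodes a sialomucin of progenitors and endothelium that adult mouse LT-HSCs largely lack. It was listed at 177 FPKM (about 6234 reads) in the Ccp3-/- library and 248 FPKM (about 9372 reads) in the wild type library, a ratio of 0.713 (0.690 to 0.736). It ranked 358 among the genes of the Ccp3-/- library and 264 among those of the wild type library, above all other gate genes. Relative to Kit it stood at 3.12 in the Ccp3-/- library and 4.15 in the wild type library. Flt3 relative to Kit stood at 1.46 in the Ccp3-/- library and 2.59 in the wild type library, and Cd48 at 2.01 in the Ccp3-/- and 2.28 in the wild type library. Slamf1 stood at 0.0601 of Kit in the Ccp3-/- library and 0.0359 in the wild type library. Against the same gate gene, Cd34, Flt3 and Cd48 thus exceeded 1 and Slamf1 stayed far below it. The Cd34 gene overlaps Gm16897, listed at 9.66 FPKM in the Ccp3-/- and 12.1 FPKM in the wild type library, and reads of the 2 may be mixed, since nothing states whether counting used strand.

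The difference between the libraries also followed transcript length, which in the Ccp3-/- library varied among the 9 genes from 967 bases for Ly6a to 5190 bases for Kit. Over all tested genes the median difference was −0.30 below 1000 bases and 0.20 from 4000 bases up, with a Spearman correlation of 0.43 across genes, which are not independent replicates. Subtracting the median of the 200 genes nearest in length took Cd48, which was short of 1.5-fold before, to −0.03. It took Ly6a to −0.55, no longer at 1.5-fold. Flt3 (−0.97) and Procr (−0.79) stayed beyond 1.5-fold lower, which makes 2 of 9 genes, beside 4.41% of all genes after the same step. Kit moved to −0.26 and Slamf1 to 0.44. The median of the 9 genes was then −0.45, with 8 still below 0, beside a median of 0.00 over all genes. The part of RNA quality in this length trend was not tested.

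**Figure D4:**
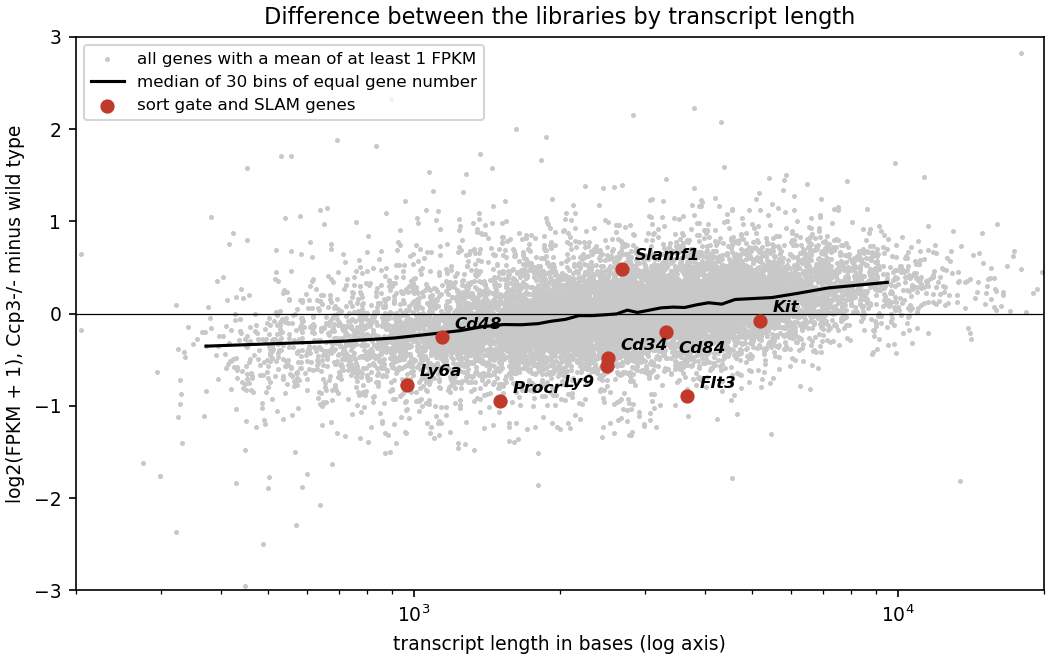
Log2(FPKM + 1) difference, Ccp3-/- minus wild type, against transcript length (log axis) for all tested genes in grey, their median in 30 bins as a line, and the 9 gate and SLAM genes in red. The line climbs with length, and Flt3 and Procr lie well below it while Cd48 lies on it; 184 genes fall outside the axes.

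Markers of the cell types that the gate was meant to keep or remove differed beside the gate genes. The 9 LT-HSC markers, Slamf1 and Procr among them, were all listed, with a sum of 69.7 FPKM in the Ccp3-/- library and 105 FPKM in the wild type library, 7 lower in value and 2 higher. The 6 lymphoid-primed progenitor markers, which include Flt3 and Cd48, summed to 520 FPKM in the Ccp3-/- library and 828 FPKM in the wild type library, and each was lower in value. The 7 granulocyte-monocyte progenitor markers summed to 6413 FPKM in the Ccp3-/- library and 3871 FPKM in the wild type library, and each was higher in value. They belong to a wider list, given below, in which Irf8, Cd33 and Ly6c2 were lower in value and the other genes higher. The ratio of Irf8 was 0.817 (0.772 to 0.864). The 5 megakaryocyte-erythroid markers summed to 144 FPKM in the Ccp3-/- and 130 FPKM in the wild type library. Over all tested genes 49.0% were lower in value. No marker of these sets was at 0 in either library. The median granulocyte-monocyte progenitor marker stood at 694 FPKM in the Ccp3-/- and 450 FPKM in the wild type library, and the median LT-HSC marker at 6.14 FPKM in the Ccp3-/- and 6.79 FPKM in the wild type library. The part of these cell types in the differences of the gate genes was not tested.

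The wider lists place the gate genes among their neighbours. Their counts stand beside 6.13% of all tested genes lower and 6.11% higher. By the 1.5-fold rule 8 of the 13 tested lymphoid-primed genes were lower and 0 higher, and their median was −0.73. Beside Flt3 they include Dntt, the lymphoid DNA polymerase gene, at 149 FPKM in the Ccp3-/- and 341 FPKM in the wild type library. Of 13 B lineage genes 9 were lower and 0 higher, with a median of −0.94 and a sum of 67.5 FPKM in the Ccp3-/- library against 145 FPKM in the wild type library. Of 18 granulocyte-monocyte progenitor genes, 7 were higher and 0 lower, with a median of 0.51, among them the myeloperoxidase gene Mpo at 2792.5 FPKM in the Ccp3-/- and 1842 FPKM in the wild type library. Of 13 mature neutrophil genes 6 were higher and 0 lower, with a median of 0.42. Among them Camp, at 152 FPKM in the Ccp3-/- and 207 FPKM in the wild type library, Ngp and Ly6g were lower in value, the others higher. So Flt3, itself on the lymphoid-primed list, was lower in a library where most, not all, of these myeloid genes were higher in value.

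The medians of the stem cell lists were nearer to 0 than that of the gate genes. Of 18 tested further stem cell surface genes, 3 were lower by the same rule and 1 higher, and the median was −0.14, which became 0.03 with equal sums. Of 18 stem cell restricted factors, 2 were lower and 2 higher, with a median of −0.07 that became 0.08 with equal sums. Among genes that averaged at least 5 FPKM, the median was −0.24 for the surface genes and −0.26 for the restricted factors, further from 0. Over all tested genes 6.13% were lower and 6.11% higher, and counts of 1 to 3 genes per list are not read as a result. Of 18 genes whose products are used in lineage panels, all were listed in both libraries, with 7 lower, 0 higher and a median of −0.20. The myeloid integrin gene Itgam was listed at 27.3 FPKM in the Ccp3-/- and 19.2 FPKM in the wild type library, a difference of 0.49. The monocyte gene Ly6c2 stood at 269 FPKM in the Ccp3-/- and 283 FPKM in the wild type library, a difference of −0.07. Il7r, the interleukin receptor gene of early lymphoid cells, stood at 4.66 FPKM in the Ccp3-/- and 10.23 FPKM in the wild type library, a difference of −0.99. In both libraries 9 of these 18 genes stood above Slamf1, itself a low gene, and 1 stood above Cd48. Among the 9 was Ptprc, at 72.5 FPKM in the Ccp3-/- and 63.1 FPKM in the wild type library. Its value is for the whole gene and does not tell its protein forms apart. The median was 0.17 for 14 megakaryocyte-erythroid genes (3 higher, 2 lower) and −0.21 for 12 T and natural killer genes (0 higher, 4 lower). It was 0.08 for 8 mast cell and basophil genes (1 higher, 1 lower) and −0.34 for 5 niche and endothelial genes (0 higher, 2 lower).

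**Figure D5:**
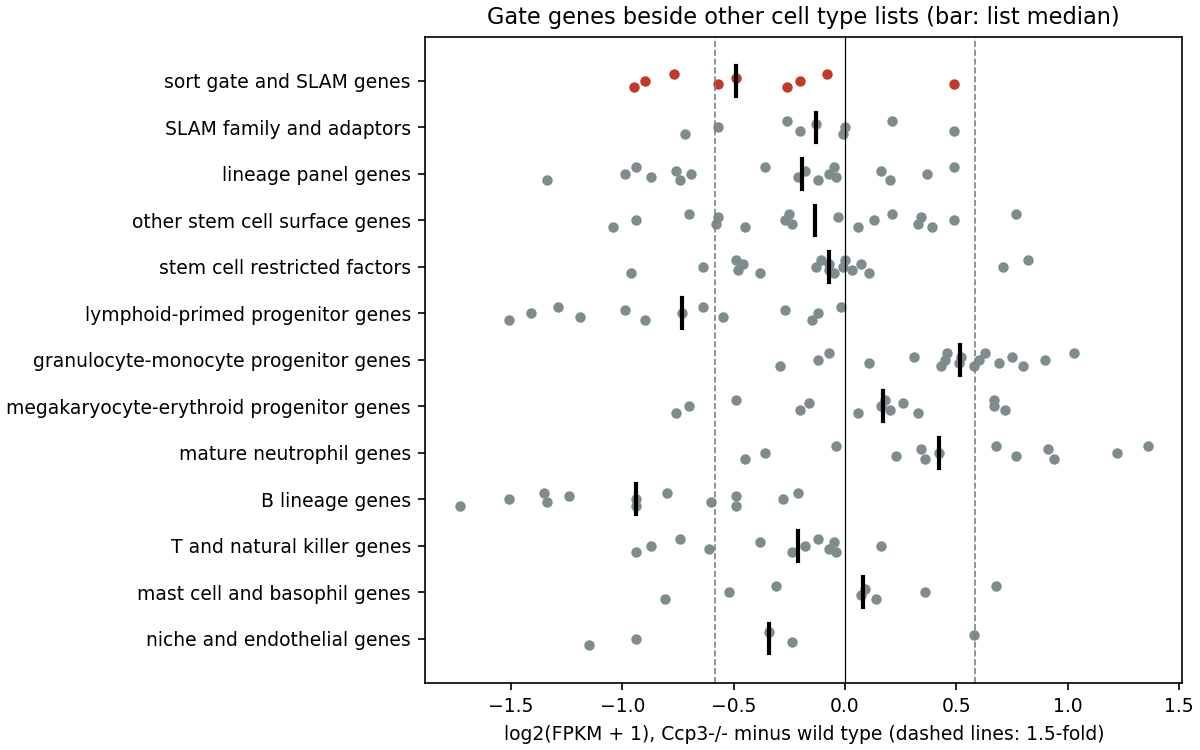
Each point is a tested gene, placed by its log2(FPKM + 1) difference, Ccp3-/- minus wild type, with the list median as a bar and dashed lines at 1.5-fold. The gate and SLAM genes (red) have a median of −0.49, between the lymphoid-primed list at −0.73 and the stem cell restricted factors at −0.07.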

How the data were processed

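RNA from 1 Ccp3-/- and 1 wild type sample of sorted cells was sequenced on a BGISEQ-500 instrument, per the labels. Per the file headers, the deposited files give an Entrez identifier, RefSeq transcripts, a length and an FPKM value made by the authors. Per the submitters' processing notes, the build was mm9 and the tools were HISAT, HISAT2 and RSEM, with no versions or settings. RefSeq on GRCm38.p6 paired 17169 of the 17216 identifiers with symbols. Genes missing from 1 file were set to 0 there.

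Depth was taken from FPKM values worth at most 8 reads in genes of 250 to 1000 bases with 1 transcript. With a step of 70.4 (Ccp3-/-) and 65.3 (wild type) per read, after length offsets of 37 and 38 bases, 88.7% of 355 and 86.4% of 353 values lay within 0.15 of a whole read. Step and offset were chosen on those same values. Exact conditional intervals used the rounded reads; intervals of ratios between genes used a log-normal approximation. The procedure was tested on simulated data. Alternatives covered pseudocount, filter, scaling and length. The members and the lists were chosen with earlier results of these data known. Named genes were the 9 members, Agbl3, the SLAM family with its adaptors, and from each list up to 4 by abundance and 2 by difference (mean of at least 5 FPKM); Some genes that it names are not reported here. Xist, Eif2s3y, Kdm5d, Ddx3y, Uty, Gm16897, Irf8, Cd33, Camp and Ly6g fall outside that rule and were chosen with their values in view. Genes of like pattern were not sought, since 2 libraries give 1 ratio per gene. Python 3.11.15 was used with scipy 1.17.1, numpy 2.4.6, matplotlib 3.10.9 and pandas 2.3.3.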

Additional observations from a re-analysis of the deposited data

How the results depend on the processing

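Of 26 values of the 5 main results under alternative settings, 21 kept their direction and stayed close to the reported value. The median difference of the 9 genes was −0.30 with equal FPKM sums and −0.54 with equal upper quartiles, against −0.49 as reported. The count of genes at least 1.5-fold higher was 1 (Slamf1) at a pseudocount of 0.1 or at equal sums, against 0 as reported. The count of lower genes was 4, with Ly9 added, at a pseudocount of 0.1 and with equal upper quartiles, and 2 after length centring. Kit changed sign with equal sums (0.11). The Ccp3-/- to wild type quotient of the Flt3 to Procr ratio was 0.09 on the log2 scale and became −0.14 after length centring, a value inside its counting error of 0. The differences of Flt3 ranged from −0.97 to −0.71, of Procr from −1.01 to −0.77 and of Slamf1 from 0.23 to 0.64. Of 54 values of single members 41 moved by less than counting error, 12 by more and 1 changed sign. Of 96 list medians 84 were classed as moved by less and 12 by more, a classing that did not mark changes of sign. Equal FPKM sums turned the negative medians of the SLAM family (0.04), further stem cell surface genes (0.03) and restricted factors (0.08) positive. When only genes averaging 5 FPKM or more were kept, the mast cell and basophil median went from 0.08 to −0.31. The T and natural killer median then went from −0.21 to −0.61, and both moves were classed as less. Depth limits Slamf1 most, at about 128 reads in the Ccp3-/- and 87 reads in the wild type library. No paired analysis was possible because each genotype has 1 library. No library could be left out for the same reason.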
